A study of Mus musculus with 6 samples.

Results

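Heat shock factors are transcription factors that bind heat shock elements, repeats of GAA and its reverse complement TTC, and switch on genes for chaperones. Hsf1 is the main activator of the response to heat and other protein-damaging stress, Hsf2 acts mainly in development and can form mixed trimers with Hsf1, and Hsf4 is the factor best known in the lens, where mutations in it cause cataract. Hsf1, Hsf2 and Hsf4 were taken as every probe set whose platform annotation gives exactly 1 of these symbols. A probe set is a group of short oligonucleotides on the array that measures 1 transcript or gene. Of the 3 factors, 2 were measured among 12393 genes, each by 1 of the 22690 probe sets on the array. These are Hsf4 and Hsf2. No probe set in the annotation used here carried Hsf1, alone or together with another symbol, and a probe set for it may be among the 1555 that are unnamed here. Hsf1 transcript was therefore not analysed here.

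The arrays compare lenses of newborn Hsf4-null mice with lenses of newborn wild-type mice, 3 arrays of each. Both groups carry the strain label ICR, and no treatment is named for either. The Hsf4-null animals are homozygous for the mutant allele. The sources used here give neither how that allele was made nor whether an array holds 1 animal or a pool. Total RNA (50 ng per array) was amplified to cDNA and hybridized to Affymetrix mouse expression arrays. The values are intensities from RMA, which corrects background, gives the probes of every array the same distribution and summarizes each probe set as 1 value. They are given below as log2.

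After RMA, which itself evens the arrays, median log2 values ran from 5.22 to 5.38. Lens genes were among the brightest on every array. Of 7 lens markers listed, the 4 measured (Cryaa, Cryba1, Crybb1 and Mip) had group means from 13.1 to 14.3, and none was called. Markers of other eye tissues were also present. The log2 of summed intensity of 5 pigment cell markers was 9.70 to 10.9 in Hsf4-null and 8.20 to 10 in wild-type lenses. For 7 macrophage markers it was 9.01 to 9.78 in Hsf4-null and 8.09 to 9.35 in wild-type lenses, and for 6 vascular markers 9.93 to 10.1 against 9.66 to 9.89. For 7 mesenchyme markers it was 10.7 to 11.2 against 10.6 to 10.8, with Col1a1 and Twist1 called higher in Hsf4-null lenses. For 6 retina markers it varied widely within each group, from 7.39 to 9.92 in Hsf4-null and from 7.65 to 9.56 in wild-type lenses. For 2 blood markers it was 5.7 to 6.0 against 5.1 to 5.8. For both tissues the groups overlapped, with no member called. The part of these tissues in the results below was not tested.

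Hsf4 transcript was near the bottom of the scale in Hsf4-null lenses and well above the array median in wild-type lenses. Hsf4 lies on chromosome 8 from 105269414 to 105275845 in GRCm38.p6, where RefSeq lists 10 transcripts of it, and the 1 probe set (1425786_a_at) cannot separate its splice forms. Its log2 intensity was 4.26, 4.09 and 3.78 in Hsf4-null replicates 1, 2 and 3, against 9.09, 9.39 and 9.56 in wild-type replicates 1, 2 and 3. Every Hsf4-null array lay more than 4 log2 units below every wild-type array. The group means were 4.04 ± 0.24 in Hsf4-null and 9.35 ± 0.24 in wild-type lenses (SD, n = 3 each). The log2 fold change was -5.30 (standard error, SE, 0.16, 95% confidence interval -5.68 to -4.92, limma adjusted p = 9.54e-06), a measured intensity 39.4-fold lower in Hsf4-null lenses.

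On a linear scale the Hsf4 probe set read 19.1, 17.1 and 13.8 in Hsf4-null lenses and 545, 669 and 755 in wild-type lenses. In Hsf4-null lenses 20.5% to 37.2% of all probe sets were dimmer, against 83.5% to 86.6% in wild-type lenses. The values come without detection calls, so whether the remaining signal is transcript or background is not known, and the size of the fold depends on that floor. With 16 added to every intensity before log2, the log2 fold change was -4.36. The sources used here do not place the probe set relative to what the mutation removes. In whole lenses, fewer cells of a type and less RNA per cell cannot be told apart.

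The Hsf2 probe set was dim in both groups, and the groups overlapped. Hsf2 lies on chromosome 10 from 57483766 to 57513143 in GRCm38.p6 (probe set 1449306_at). Its log2 intensity was 3.70, 3.96 and 3.78 in Hsf4-null replicates 1, 2 and 3, against 3.62, 3.67 and 3.77 in wild-type replicates 1, 2 and 3. Hsf4-null replicate 2 was the highest of the 6 arrays, and Hsf4-null replicate 1 lay below wild-type replicate 3. The group means were 3.81 ± 0.13 in Hsf4-null and 3.69 ± 0.07 in wild-type lenses (SD, n = 3 each). The log2 fold change was 0.13 (SE 0.11, 95% confidence interval -0.12 to 0.38, limma adjusted p = 0.625), and it did not pass. As a ratio of Hsf4-null over wild-type intensity this was 1.09, with an interval from 0.92 to 1.30. Without Hsf4-null replicate 2 the log2 fold change was 0.05, and without Hsf4-null replicate 1 it was 0.18.

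The level of Hsf2 limits what this interval says. On the Hsf4-null arrays 20.1% to 28.1% of all probe sets were dimmer than Hsf2, and on the wild-type arrays 16.5% to 18.8%. At that end of the scale an intensity can be largely background, and how much of it was background was not tested. The interval bounds the change in the measured intensity and not the change in Hsf2 transcript, and an increase that stays below the background of the array was not detectable. Since no probe set is named Hsf1 in the annotation used here, the question whether a related factor is raised where Hsf4 is lost was put to Hsf2 alone. That is a limit of the annotation and need not be one of the array.

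**Figure D1:**
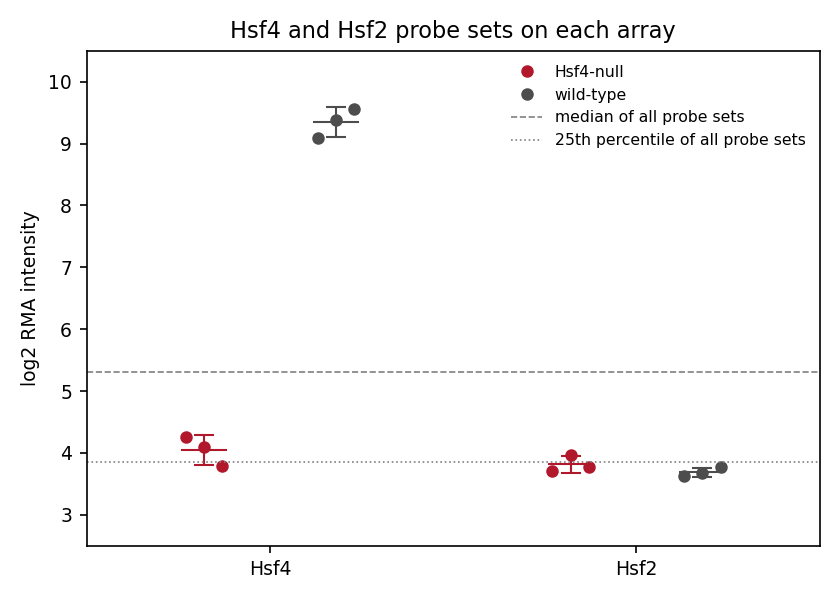
Log2 RMA intensity (vertical axis) of the Hsf4 and Hsf2 probe sets on the 3 Hsf4-null and 3 wild-type arrays (points), with bars at the mean ± SD and lines at the median and 25th percentile of all probe sets. Hsf4 lies at 3.78 to 4.26 in Hsf4-null and at 9.09 to 9.56 in wild-type lenses, while Hsf2 lies at 3.70 to 3.96 in Hsf4-null and at 3.62 to 3.77 in wild-type lenses.

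Of the 2 probe sets, 1 was called, lower in Hsf4-null lenses, and 0 were called higher (limma with Benjamini-Hochberg adjustment over 22626 probe sets, adjusted p under 0.05). Over all probe sets 2.66% were called in either direction. The called one is the targeted gene itself. The exact permutation test over the arrays gave a two-sided p of 0.1 for Hsf4 and 0.2 for Hsf2, where 0.1 is the smallest that 3 against 3 arrays can give.

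Of the other family members, Hsf3, Hsf5 and Hsfy2, 0 of 3 had a single-symbol probe set. Transcripts for proteins that bind or modify heat shock factors were measured more fully, and none was called. Of 28 such genes, 20 had a probe set, 0 were lower and 0 were higher at an adjusted p under 0.05 from limma (2 lower and 0 higher at an unadjusted p under 0.05). Over all 12393 genes, each represented by its brightest probe set, 2.11% were called lower and 0.775% higher, and at an unadjusted p under 0.05 the shares were 8.38% lower and 7.34% higher. The median log2 fold change of the 20 was 0.04, beside 0.01 over all genes, and the values ran from -0.38 for Sirt1, which deacetylates Hsf1, to 0.40 for Dusp26, a phosphatase that acts on Hsf4. Dusp26 varied widely between arrays (5.08 ± 1.18 in Hsf4-null and 4.68 ± 0.62 in wild-type lenses, SD, n = 3 each). Hsbp1, a small protein that binds heat shock factor trimers and dampens Hsf1, had a log2 intensity of 11.2 ± 0.04 in Hsf4-null and 11.2 ± 0.08 in wild-type lenses (SD, n = 3 each). Its dimmer probe set had a log2 fold change of 0.17 and did not pass. There the groups did not overlap, with Hsf4-null above wild-type, where 10.1% of all genes were higher in this way. The brightest of the other partners and regulators were the translation factor Eef1a1, at a log2 fold change of 0.02 (SE 0.09), and the DNA damage sensor Parp1, at 0.05 (SE 0.11).

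Of the transcripts that heat shock factors are known to switch on, some were lower in Hsf4-null lenses and none was called higher. Of 28 genes listed as targets of the heat shock response, 24 had a probe set. Of these, 10 fell, 0 rose and 14 did not pass, so that 41.7% were called lower, beside 2.11% of all genes. Their median log2 fold change was -0.50, beside 0.01 over all genes. The groups did not overlap for 19 of the 24, with Hsf4-null below wild-type in all 19, against 11.5% of all genes lower in this way and 10.1% higher. The list was drawn up with earlier results of these data known, so these shares are a description.

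Hspb1, a small heat shock protein, had the largest decrease of the list, with log2 intensities of 5.23, 5.15 and 5.68 in Hsf4-null replicates 1, 2 and 3, against 9.40, 9.85 and 9.17 in wild-type replicates 1, 2 and 3. Its other probe set also fell, to 4.42 in Hsf4-null against 8.30 in wild-type lenses. Dnajb1, the Hsp40 cochaperone that delivers clients to Hsp70, had 9.96, 9.83 and 9.77 in Hsf4-null replicates 1, 2 and 3, against 11.9, 12.1 and 11.9 in wild-type replicates 1, 2 and 3. All 3 Hsf4-null arrays lay below all 3 wild-type arrays for both genes. The other named decreases were smaller. St13, the Hsp70-interacting protein Hip, fell by 0.86 on the log2 scale (SE 0.10, limma adjusted p = 0.0035). Ahsa1, an activator of the Hsp90 ATPase, fell by 0.85 (SE 0.12). Stip1, which bridges Hsp70 and Hsp90, fell by 0.77 (SE 0.11). Hspe1, the mitochondrial cochaperonin Hsp10, fell by 0.77 (SE 0.12). Bag3, an exchange factor for Hsp70, fell by 0.89 (SE 0.14), and Hspb8, a small heat shock protein that works with Bag3, fell by 1.06 (SE 0.17). The other calls were Chordc1, an Hsp90 cochaperone, which fell by 0.58 (SE 0.11), and Dnaja1, an Hsp40 cochaperone, which fell by 0.48 (SE 0.10). For St13, Hspb8 and Dnaja1 the dimmer probe sets also had lower means in Hsf4-null lenses but did not pass.

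Among the 14 that did not pass were the brightest of the list. Cryab, the small heat shock protein αB-crystallin, had 13.7 ± 0.07 in Hsf4-null and 13.9 ± 0.03 in wild-type lenses (SD, n = 3 each). Hspa8, the constitutive Hsp70, had a log2 fold change of -0.25 (SE 0.10, limma adjusted p = 0.297), and Hsph1, an Hsp110 exchange factor, -0.51 (SE 0.13, adjusted p = 0.0955). For 3 of the 14, dimmer probe sets were called lower. Hsph1 had 1 such probe set, at 6.76 in Hsf4-null and 7.96 in wild-type lenses. Hspa4l, another Hsp110 protein, had 1, which fell by 1.48 (SE 0.21). Hsp90aa1, the inducible Hsp90, had 2, of which one fell by 0.56 and the other fell by 0.58. For Cryab, Hspa8 and the brighter Hsph1 probe set the groups did not overlap, with Hsf4-null below wild-type. Hspa4 also had no overlap by its brightest probe set, at a log2 fold change of -0.18. Its other probe sets went the other way, at 0.27 and 0.09, and for these the groups overlapped. For 3 of the 14 the log2 fold change of the brightest probe set was above 0, and the groups overlapped. The stress-inducible Hsp70 genes had 0.19 for Hspa1a (SE 0.19) and 0.39 for Hspa1b (SE 0.30), and Sqstm1, an autophagy receptor, had 0.13 (SE 0.12). Hspa1a was dim, at 3.49 in Hsf4-null and 3.29 in wild-type lenses, below the array median in both groups, where a change may be hidden. The other probe sets of Hspa1b had 0.38 and 0.33 and did not pass either. Both were below the array median in both groups. For the one at 0.38 the groups did not overlap, with 3.90 in Hsf4-null above 3.52 in wild-type lenses. Hspa1a and Hspa1b are close paralogs whose probes may not separate them. The count of 10 rests in part on single arrays. With wild-type replicate 2 left out it came to 3, with Hsf4-null replicate 3 left out to 4, and with Hsf4-null replicate 2 left out to 6. Hspb1, Dnajb1 and St13 were called whichever array was left out. The calls for Ahsa1, Stip1, Hspe1, Bag3, Hspb8, Chordc1 and Dnaja1 were each lost without wild-type replicate 2. With all arrays, Chordc1 and Dnaja1 had limma adjusted p of 0.0388 and 0.0495. Their calls were also lost without Hsf4-null replicate 2 and without Hsf4-null replicate 3. The calls for Ahsa1, Stip1, Hspe1 and Bag3 were also lost without Hsf4-null replicate 3, and those for Hspe1 and Bag3 without Hsf4-null replicate 2. That for Bag3 was lost without wild-type replicate 1 and that for Hspb8 without wild-type replicate 3.

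A second list held 15 lens genes that earlier work had linked to Hsf4, of which 13 had a probe set. Of these, 5 fell, 0 rose and 8 did not pass, so that 38.5% were called lower, beside 2.11% of all genes. This list too was drawn up with earlier results of these data known, so its share is a description. For Dnase2b the earlier work includes a report from these same arrays. Hspb1 and Cryab stand on both lists. Skap2, a Src kinase adaptor, had the largest decrease besides Hspb1, at 5.73, 6.35 and 6.25 in Hsf4-null replicates 1, 2 and 3, against 8.92, 8.79 and 9.01 in wild-type replicates 1, 2 and 3. Hmox1, the heme-degrading enzyme heme oxygenase 1, had 9.52, 9.31 and 9.37 in Hsf4-null replicates 1, 2 and 3, against 11.7, 12.0 and 12.0 in wild-type replicates 1, 2 and 3. For both genes the groups lay more than 2 log2 units apart. Bfsp1, the gene of the lens intermediate filament protein filensin, fell by 1.65 (SE 0.10), and Dnase2b, the nuclease of fiber cell denucleation, fell by 1.24 (SE 0.13, limma adjusted p = 0.0028). These 5 were called whichever array was left out.

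The crystallins and growth factors of this list did not pass. Crygf, a gamma-crystallin, had 13.2 ± 0.16 in Hsf4-null and 13.6 ± 0.01 in wild-type lenses (SD, n = 3 each; log2 fold change -0.43, limma adjusted p = 0.0955), with no overlap between groups. Crygs had a log2 fold change of -0.03 (SE 0.09). Fgf1, Fgf4 and Fgf7, growth factors for lens cells, had log2 fold changes of 0.22, 0.04 and 0.19, and all 3 were below the array median in both groups, where a change may be hidden. For Fgf1 and Fgf7 the groups did not overlap, with Hsf4-null above wild-type. Of the 13 genes, 2 were higher and 8 lower in this way, against 10.1% and 11.5% of all genes. For the other Fgf1 probe set, at 0.14, the groups overlapped. Of the other Fgf4 probe sets, those at -0.25 and -0.11 had Hsf4-null below wild-type with no overlap, and that at -0.01 overlapped. None of these other probe sets passed.

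**Figure D2:**
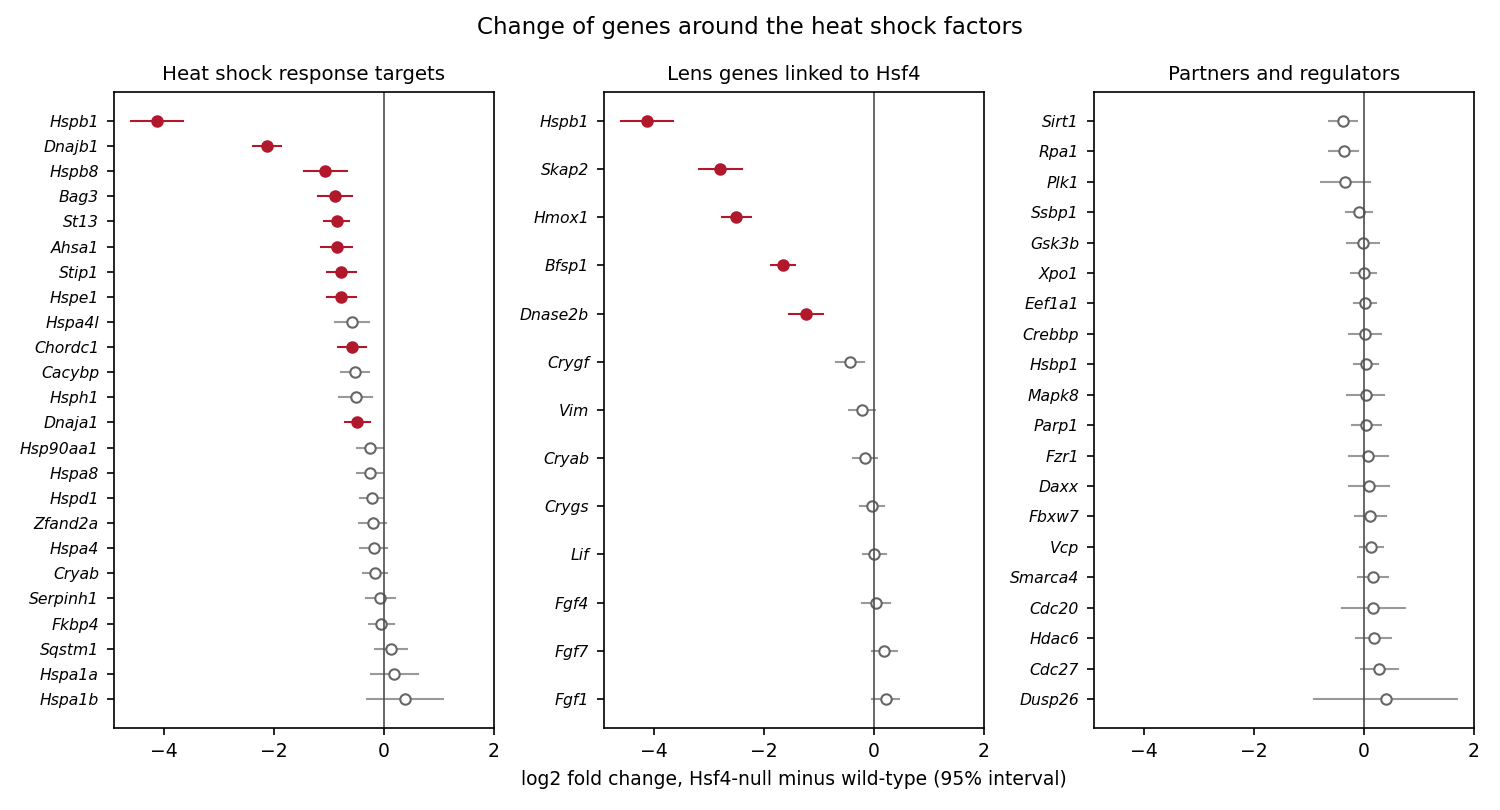
Log2 fold change, Hsf4-null minus wild-type lenses (horizontal axis), of the measured members of 3 gene lists, with limma's 95% confidence intervals from 3 arrays in each group. Filled points passed an adjusted p under 0.05 and are all left of 0, 10 of 24 heat shock response targets and 5 of 13 lens genes, with 0 of 20 partners and regulators.

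The start regions of these genes were searched for the sequence that heat shock factors bind. Most outside the heat shock response targets held no match, while 11 of the 20 targets with a promoter held a match. The element was searched as GAANNTTC, 2 facing units, which reads the same on both strands. It was also searched as 3 alternating units of GAA and TTC with 2 bases between them, on both strands, so that each match of 3 units contains a match of 2. The windows are RefSeq promoters of GRCm38.p6, from 250 bases before to 50 bases after a gene's start. The 2-unit element was found in 7.86% of 32851 promoters and the 3-unit element in 0.603%. Among the heat shock response targets, 20 of 24 genes had a promoter in the table, 25 promoters in all. Of these 12 (48%) held the 2-unit and 5 (20%) the 3-unit element, counting overlapping promoters of Hsph1, those of the paralogs Hspa1a and Hspa1b, and the window that Hspd1 and Hspe1 largely share on opposite strands. The share with the 2-unit element was 6 of 12 promoters for the genes called lower and 6 of 13 for those not called. Among the lens genes it was 2 of 10, those of Hspb1 and Dnase2b, and among the partners and regulators 1 of 24, that of Vcp. The promoters of Dnajb1, Ahsa1, Stip1, Bfsp1 and Skap2, all called lower, held 0 matches.

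The promoters of 3 genes that fell are shown with the matched elements in capitals, as examples of what the letters look like in genes with 2 separate matches (Hspb1), with 3-unit matches (Hspe1) and with a single match far from the start (Dnase2b). They lie at chr5:135887669-135887968 on the plus strand, chr1:55087898-55088197 on the plus strand and chr3:146615549-146615848 on the minus strand of GRCm38.p6. In Hspb1 the elements begin at positions -117 and -97 from the start, in Hspe1 the 2-unit match begins at -84 inside a longer run, and in Dnase2b it begins at -230.
Hspb1: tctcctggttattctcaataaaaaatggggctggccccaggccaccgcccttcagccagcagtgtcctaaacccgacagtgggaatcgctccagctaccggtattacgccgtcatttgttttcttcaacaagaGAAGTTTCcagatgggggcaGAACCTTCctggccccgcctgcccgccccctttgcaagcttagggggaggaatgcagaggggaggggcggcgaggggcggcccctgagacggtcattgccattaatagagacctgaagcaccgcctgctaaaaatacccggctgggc
Hspe1: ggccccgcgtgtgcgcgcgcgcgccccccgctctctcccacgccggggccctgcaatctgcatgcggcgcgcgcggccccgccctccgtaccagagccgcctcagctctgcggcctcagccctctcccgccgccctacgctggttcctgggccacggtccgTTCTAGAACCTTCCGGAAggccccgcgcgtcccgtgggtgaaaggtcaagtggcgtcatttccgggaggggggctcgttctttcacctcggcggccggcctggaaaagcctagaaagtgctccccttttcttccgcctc
Dnase2b: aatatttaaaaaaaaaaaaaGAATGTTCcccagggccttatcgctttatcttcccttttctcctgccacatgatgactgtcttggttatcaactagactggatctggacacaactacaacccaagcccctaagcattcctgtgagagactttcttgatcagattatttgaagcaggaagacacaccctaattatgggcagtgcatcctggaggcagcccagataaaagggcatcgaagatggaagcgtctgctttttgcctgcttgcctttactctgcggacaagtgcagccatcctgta

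Of the heat shock factors, Hsf2 alone had a promoter in the table, at chr10:57486135-57486434 on the plus strand of GRCm38.p6, and it held 0 matches, so it is printed in lower case throughout for comparison. No match means only that these letters are not in this window.
Hsf2: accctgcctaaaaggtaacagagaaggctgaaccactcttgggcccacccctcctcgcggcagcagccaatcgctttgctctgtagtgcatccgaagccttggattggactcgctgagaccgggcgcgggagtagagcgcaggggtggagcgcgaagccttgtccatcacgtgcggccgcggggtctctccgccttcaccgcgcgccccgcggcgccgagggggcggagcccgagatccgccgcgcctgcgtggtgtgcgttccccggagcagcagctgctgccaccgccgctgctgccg

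To place the heat shock factor genes in the genome, the 5 nearest measured genes on each side were taken in RefSeq gene order, 10 for each locus. Beside Hsf4, 1 of 10 was called, higher, and 0 were called lower, where 0.775% of all genes were called higher. This was Tradd, an adaptor of the tumor necrosis factor receptor, at 7.57 ± 0.16 in Hsf4-null and 7.01 ± 0.06 in wild-type lenses (SD, n = 3 each; log2 fold change 0.56, limma adjusted p = 0.0443). The other Tradd probe set was dim and had a log2 fold change of -0.02. The call for Tradd was lost when any single array was left out. Without Hsf4-null replicate 1, 1 gene beside Hsf4 was called higher, and it was not Tradd. The adjacent measured genes Fbxl8 and Nol3 had log2 fold changes of -0.19 and -0.26 and did not pass. At an unadjusted p under 0.05 from limma, 3 genes beside Hsf4 were higher, Tradd among them, and 1 was lower. Over all genes these shares were 7.34% and 8.38%. The groups did not overlap for 3 genes higher in Hsf4-null lenses and 3 lower. Of all genes, 10.1% were higher and 11.5% lower in this way.

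Beside Hsf2 and beside Hsf1, 0 of 10 genes each were called by limma. At an unadjusted p under 0.05, 2 genes beside Hsf2 and 1 beside Hsf1 were higher and 0 were lower, where 7.34% of all genes were higher and 8.38% lower. Beside Hsf2 the values ran from -0.29 for Pkib to 1.03 for Fabp7, and Fabp7 varied between arrays by more than 0.7 (SD) in either group. Beside Hsf1, which lies on chromosome 15 from 76477362 to 76501155, they ran from -0.19 for Slc39a4 to 0.41 for Scx.

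**Figure D3:**
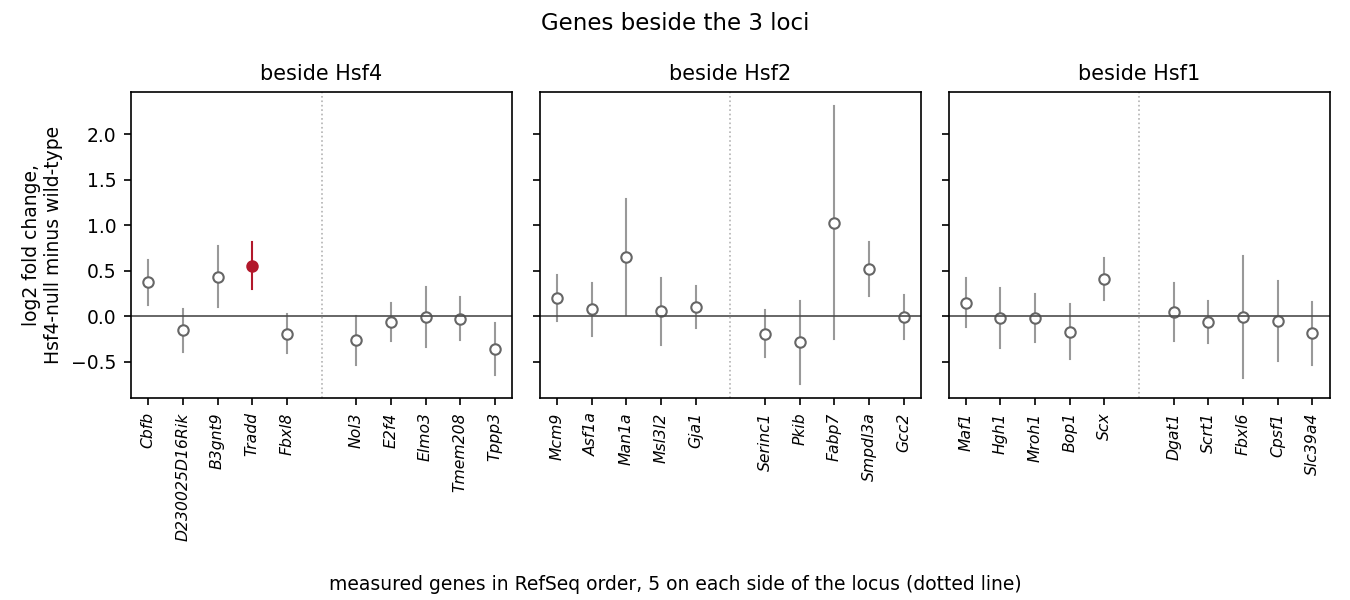
Log2 fold change, Hsf4-null minus wild-type lenses (vertical axis), of the 5 measured genes on each side of Hsf4, Hsf2 and Hsf1 in RefSeq order (horizontal axis), with limma's 95% confidence intervals from 3 arrays in each group. The filled point is Tradd beside Hsf4, at 0.56, and the open points did not pass.

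Genes were also compared with each factor by Pearson's r of log2 values over the 6 arrays, among probe sets with 1 symbol and a mean at or above the median. The 6 values are few and share their arrays, so r serves here only to order genes. For Hsf4, whose values fall into 2 separate groups, 309 of 10413 probe sets (2.97%) had r of at least 0.95. The most like it were Dnajb1 (its dimmer probe set), Nif3l1, Dnajb4, Hmox1 and Washc3, with r from 0.9985 to 0.9998. All 5 were called lower in Hsf4-null lenses. Choosing genes by r with Hsf4 selects such a split between groups, so these calls add no separate evidence. Dnajb4, another Hsp40 cochaperone, had group means of 4.91 ± 0.05 in Hsf4-null and 7.12 ± 0.08 in wild-type lenses (SD, n = 3 each), and Nif3l1 had 7.10 ± 0.09 and 9.24 ± 0.13 in the same order. The Hsf4-null mean of Dnajb4 lay below the array median of 5.31. Dnajb4 therefore met the filter on the mean through its wild-type values.

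For Hsf2, 23 of 10414 probe sets (0.221%) had r of at least 0.95. The most like it were Zmynd11, Chd1, Spg20, Osbp and Naaa, with r from 0.982 to 0.988, and none of the 5 was called. Chd1, a chromatin remodeling ATPase, showed the pattern as 7.79, 8.27 and 8.01 in Hsf4-null replicates 1, 2 and 3, highest in replicate 2 as for Hsf2. Hsf2 moved within a range of 0.34 log2 units over the 6 arrays, so its order rests on small differences at the dim end of the scale.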

How the data were processed

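Lenses of newborn mice were measured on 6 arrays, 3 Hsf4-null and 3 wild-type. The methods call them biological triplicates, and p-values measure the spread between them. The authors ran RMA on the arrays, and the deposited intensity of each probe set is linear. No RMA version is stated in the sources used. After 64 control probe sets were removed from 22690, log2 of the other 22626 was tested with limma 3.58.1 (R 4.3.3; lmFit, then eBayes, on the group alone and with no filter). P-values were adjusted by Benjamini-Hochberg, calls had an adjusted p under 0.05, and intervals are 95%.

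The platform annotation gives 1 symbol to 20380 of these, several to 691 and none to 1555. For 20351, RefSeq GRCm38.p6 supplied the current symbol. The brightest probe set stands for a gene. Promoter sequences are RefSeq's. Named genes are every Hsf1, Hsf2 and Hsf4 probe set, up to 8 called members of a list by adjusted p with its 3 brightest members not called, called neighbours, and the 5 genes most like each factor. Others, named as ends of a range or as examples, were chosen after their values were seen. The members and lists were chosen with earlier results of these data known. The alternatives were a block on replicate number, trended robust eBayes, quantile normalization, centring on the median, removal of dim probe sets, 1 probe set for each gene, an offset of 16, the methods' t-test and leaving out each array. The methods also used SAM, which was not run. The fit was tested on simulated data. The number of arrays limits the precision.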

Additional observations from a re-analysis of the deposited data

How the results depend on the processing

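Hsf4 was called lower and Hsf2 was not called under each alternative that tested them. The log2 fold change of Hsf4 ran from -5.43 to -4.36 and that of Hsf2 from 0.05 to 0.18; the filter on dim probe sets left Hsf2 untested. With 1 array left out, Hsf4 ran from -5.43 to -5.17. With the methods' t-test at unadjusted p under 0.05, 17 heat shock response targets were lower, 2 partners and regulators lower and 1 higher, 1 lens gene higher, 1 gene each beside Hsf1 and Hsf2 higher, and 2 beside Hsf4 lower and 2 higher. With that test after adjustment, 3 targets were lower and 0 genes beside Hsf4 were higher, and Dnase2b was not called. With the replicate block, 4 targets were lower and 0 genes beside Hsf4 were higher. With trended robust eBayes, 13 targets and 6 lens genes were lower, beside 10 and 5 in the main fit. The deviations of same-numbered arrays from their group means had correlations of 0.252, -0.206 and -0.0806 for replicates 1, 2 and 3. Whether the numbers pair the samples was not tested, and 3 values cannot settle it. With 1 array left out, 3 to 9 targets were lower and 0 to 1 genes beside Hsf4 were higher. Hsbp1, Parp1 and Crygs, none of them called, changed sign, with ranges of -0.011 to 0.063, -0.0016 to 0.14 and -0.062 to 0.0060 over the arrays left out. Over all probe sets the 439 lower and 163 higher became 268 and 114 with the block, 63 and 22 with the adjusted t-test, 1708 and 1204 with the unadjusted one, 589 and 246 with trended robust eBayes, 266 and 100 with 1 probe set per gene, and 226 to 385 and 94 to 177 with 1 array left out. Fewer arrays, or the block, leave fewer degrees of freedom; otherwise the cause was not tested. The dim end of the scale limits Hsf2 and Hsf4-null Hsf4.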
